A study of Mus musculus with 20 samples.

Results

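The transcripts described here are those of the epidermal growth factor (EGF) receptor system in the mouse kidney, namely the ligands Egf, Areg, Hbegf, Tgfa, Ereg and Btc, the receptors Egfr, Erbb2 and Erbb3, and the receptor inhibitor Errfi1. They were chosen by gene symbol, and all 10 were found among the 24421 genes of the raw count table. RNA sequencing was performed on pieces of snap-frozen kidney from mice of mixed C57BL/6 and 129/SvJ background aged 12 weeks. In Fh1-/- animals, Fh1 fl/fl was recombined by a tamoxifen-activated Cre (Creert2) placed at Rosa26, a locus active in nearly all cell types, which removes exons 3 and 4, so the deletion was not restricted to the kidney. Fh1+/+ controls had wild-type Fh1 alleles, carried the same Cre, and both genotypes received tamoxifen as 3 injections of 2 mg. Kidneys were taken at day 5 or day 10, with 5 libraries in each of the 4 groups of genotype and day. Mice of both sexes were used, and sex is not assigned to libraries here. The labels number the libraries without naming animals, and p-values therefore speak of the spread among libraries, which may in part be technical.

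EGF receptor ligands are made as membrane-anchored precursors that proteases release from the cell surface. The released ligand binds EGFR, which pairs with itself or with ERBB2 or ERBB3 and signals through the ERK and PI3K cascades, and negative regulators such as ERRFI1 (also called MIG6) switch the receptor off. In the healthy kidney, EGF comes mainly from the thick ascending limb and distal convoluted tubule, whereas HBEGF, amphiregulin and epiregulin are known as ligands that damaged tubular cells produce.

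Each library held between 16654829 and 25001294 counts, with a median of 18547503. Levels are given as CPM, counts scaled to the library size after TMM normalization across all 20 libraries, or per kilobase of exon (CPM per kb) where genes are compared with each other. Fh1 was at 351, 248, 365, 413 and 359 CPM in Fh1-/- replicates 1 to 5 at day 10 and at 247, 231, 233, 222 and 259 CPM in Fh1+/+ kidneys. Fh1 was at 222, 216, 243, 232 and 199 CPM in the Fh1-/- and at 262, 236, 215, 266 and 263 CPM in the Fh1+/+ libraries of day 5. These gene-level counts also cover the exons that the deletion leaves in place, and were not lower in the libraries labelled Fh1-/- at day 10, so they do not check the genotypes, and groups are named by their labels throughout. Fh1-/- day 10 replicates 1 and 3 stood apart from all other libraries on the first principal component, which held 49.6% of the variance, at -65.69 and -66.25 against -30.78 to 27.29. They were also the most alike of 40 pairs within groups, but still differed beyond sampling noise (chi-square per degree of freedom 7.84). The day 10 differences of the members and of the named pathway genes are given with and without this pair where the values moved, a choice of samples that was made with the data known.

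In control kidneys at day 10, Egf was the most abundant member per kilobase of exon, at 205 ± 44.1 CPM per kb (SD, n = 5), followed by Errfi1 at 109 ± 36.7. The receptors Erbb2, Erbb3 and Egfr followed at 19.1 ± 2.57, 7.33 ± 0.94 and 4.03 ± 0.306 CPM per kb. Hbegf was at 3.47 ± 0.649, Btc at 1.57 ± 0.169 and Tgfa at 1.43 ± 0.289 CPM per kb, and Areg and Ereg were lowest at 0.164 ± 0.0731 and 0.0598 ± 0.0228 CPM per kb. In this order, Egfr and Hbegf, and Btc and Tgfa, lay within their spreads of each other.

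Egf, the main ligand of the healthy kidney, was far below the controls in 2 of the 5 Fh1-/- kidneys at day 10. Egf was nearer to or within the range of the controls in the other 3. On chromosome 3 (GRCm38, 129677565 to 129755316, minus strand), it was at 104, 2040, 117, 1433 and 2745 CPM in Fh1-/- replicates 1 to 5 and at 2258, 2467, 3078, 1945 and 1819 CPM in Fh1+/+ kidneys. Replicates 1 and 3 were at 4.51% and 5.07% of the Fh1+/+ day 10 mean, and replicates 2, 4 and 5 at 88.2%, 62.0% and 119%. Replicate 4 was also below all controls of that day. Replicates 2 and 5 lay within their range, so the groups overlapped. At day 5 Egf was at 2093, 2813, 1945, 1906 and 2480 CPM in Fh1-/- and at 2478, 2235, 1590, 1615 and 2118 CPM in Fh1+/+ kidneys. Every library other than the pair was therefore between 1433 and 3078 CPM. Between the genotypes, the log2 fold change (Fh1-/- over Fh1+/+) of Egf at day 10 came to -0.85 (standard error 0.77, adjusted p = 0.481, edgeR), and that of day 5 to 0.15 (standard error 0.16, adjusted p = 1, edgeR). Without replicates 1 and 3 the day 10 value was -0.15 (standard error 0.25, adjusted p = 0.785, edgeR). In whole tissue, fewer cells of a type and less RNA per cell cannot be told apart.

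Hbegf, a heparin-binding ligand that is also shed from the cell surface, was high in the same pair of libraries. It lies on chromosome 18 (36504927 to 36515805, minus strand) and was at 95.5, 15, 93.4, 18.3 and 23.5 CPM in Fh1-/- replicates 1 to 5 at day 10, against 19.9, 14.2, 13.6, 20.2 and 15.8 CPM in Fh1+/+ kidneys. Day 5 levels were 16.6, 14.7, 22.3, 16.8 and 10.2 CPM in Fh1-/- and 13.2, 17.4, 15, 16.9 and 15.9 CPM in Fh1+/+ kidneys. Replicates 1 and 3 thus stood at 570% and 558% of the Fh1+/+ day 10 mean. Replicates 2 and 4 were within the range of the controls, and replicate 5 was above it, at 140% of that mean. Hbegf had a day 10 log2 fold change of 1.54 (SE 0.53, unadjusted p = 0.0142, adjusted p = 0.108, edgeR), and the adjusted p from DESeq2 was 0.0243, neither under the threshold of 0.01. Without replicates 1 and 3 it was 0.19 (standard error 0.19, adjusted p = 0.604, edgeR), and with replicate 1 or 3 alone left out it was 1.17 or 1.19. The day 5 value was 0.02 (standard error 0.17, adjusted p = 1, edgeR).

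Areg, which encodes amphiregulin, was nearly undetected outside the pair. Areg, Ereg and Btc lie close together on chromosome 5, Areg from 91139599 to 91148432 and Ereg from 91074622 to 91093646 on the plus strand, and Btc from 91357261 to 91402994 on the minus strand. At day 10 Areg had 260, 4, 195, 3 and 7 reads in Fh1-/- replicates 1 to 5, or 16, 0.224, 13.8, 0.165 and 0.313 CPM. Fh1+/+ kidneys had 6, 3, 5, 2 and 3 reads at day 10 (0.31, 0.138, 0.276, 0.106 and 0.168 CPM). At day 5 there were 3, 6, 7, 2 and 3 reads in Fh1-/- and 13, 2, 4, 5 and 7 in Fh1+/+ kidneys. Replicates 2, 4 and 5 were therefore at the level of the controls, and the group means of 6.10 ± 8.07 (SD, n = 5) and 0.200 ± 0.0888 CPM differed through 2 libraries. Areg was below the filter on low counts, and the difference in mean log2 CPM at day 10 was 2.37 (two-sided exact permutation test, p = 0.127, where 5 against 5 libraries allow no p under 0.00794). Fitted without the filter, its log2 fold change came to 4.87 (SE 1.34, adjusted p = 0.0822, edgeR). Without replicates 1 and 3 the difference in mean log2 CPM was 0.18 (exact permutation test, p = 0.571).

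Ereg, the epiregulin gene that neighbours Areg on chromosome 5, was scarcer still. It had 23, 2, 19, 3 and 7 reads in Fh1-/- replicates 1 to 5 at day 10 and 4, 7, 3, 7 and 3 reads in Fh1+/+ kidneys. In day 5 kidneys it had 2, 9, 6, 4 and 6 reads in Fh1-/- and 10, 10, 10, 7 and 6 reads in Fh1+/+ kidneys. The highest counts were again in replicates 1 and 3, at 1.41 and 1.35 CPM, against at most 0.55 CPM elsewhere. The difference in mean log2 CPM was 0.70 at day 10 (exact permutation test, p = 0.365) and -0.63 at day 5 (exact permutation test, p = 0.0397, unadjusted, 1 of 4 such tests). In the fit without the filter, which adjusts over all genes, the day 5 log2 fold change of Ereg came to -0.74 (SE 0.42, adjusted p = 0.952, edgeR). An antisense gene, Gm19610, overlaps Ereg. Whether reads were counted by strand is not stated in the methods used here, and reads of the genes on either strand cannot then be told apart.

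Tgfa and Btc, the genes of transforming growth factor alpha and betacellulin, did not follow this pattern. Tgfa, on chromosome 6 (86195223 to 86275719, plus strand), lay between 6.33 and 10.6 CPM in Fh1-/- and between 6.79 and 11.0 CPM in Fh1+/+ kidneys at day 10, with replicates 1 and 3 at 9.39 and 8.73 CPM. Btc lay between 5.11 and 10.7 CPM in Fh1-/- and between 6.09 and 7.98 CPM in Fh1+/+ kidneys, with replicates 1 and 3 at 6.75 and 5.11 CPM. The genotypes overlapped for both genes. Log2 fold changes at day 10 were -0.10 for Tgfa (standard error 0.19, adjusted p = 0.760, edgeR) and 0.03 for Btc (standard error 0.20, adjusted p = 0.937, edgeR), and at day 5 they were 0.06 and -0.29 (adjusted p = 1 for each, edgeR).

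**Figure D1:**
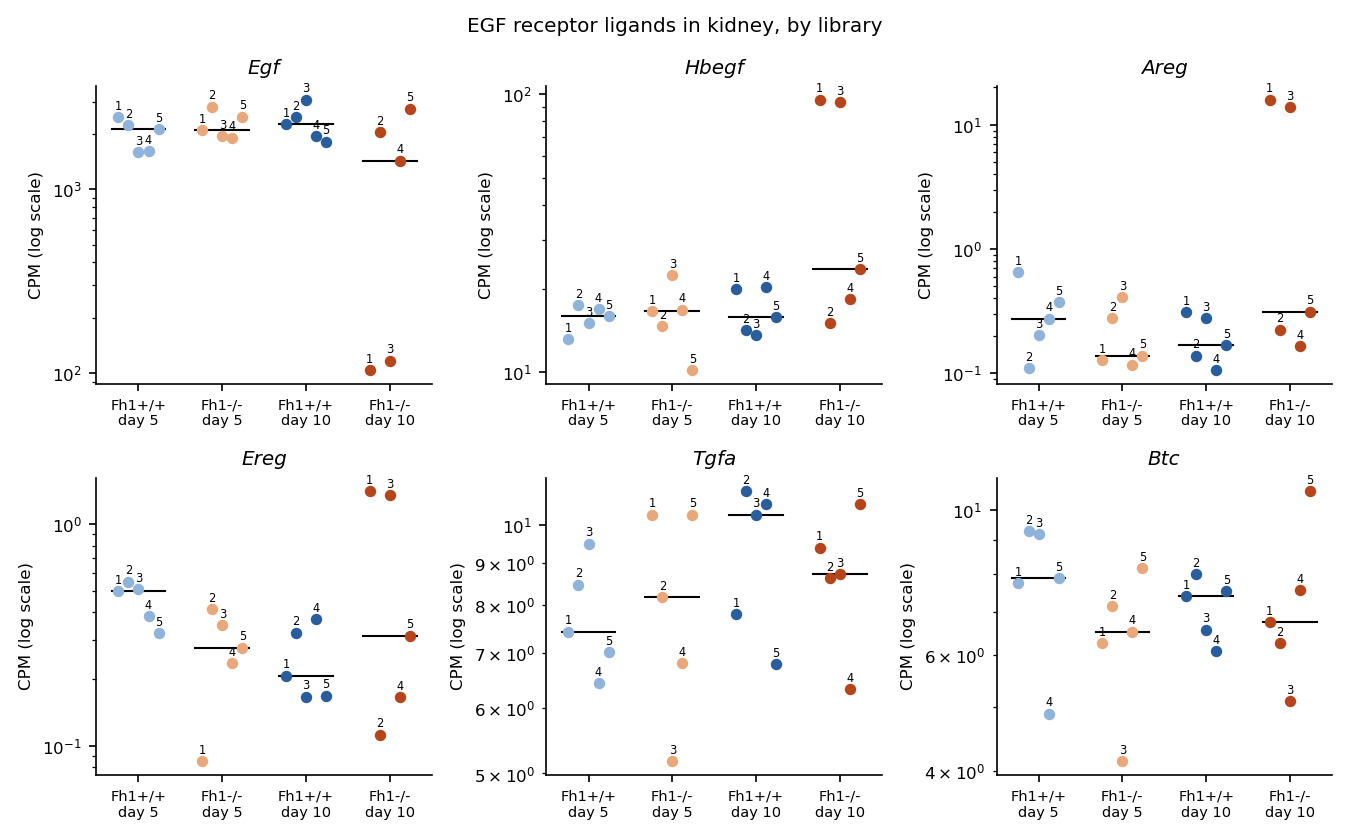
CPM of the 6 ligands (log axes) in each library, by genotype and day, with the replicate number above each point and the group median as a line. In Fh1-/- kidneys at day 10, replicates 1 and 3 are lowest for Egf (104 and 117 CPM) and highest for Hbegf, Areg and Ereg, and lie among the others for Tgfa, while for Btc replicate 3 is lowest of its group.

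Expressed per length, the make-up of the ligand transcripts differed in the pair from that in all other libraries. Egf made up 96.4% ± 0.711 (SD, n = 5) of the summed CPM per kb of the 6 ligands in Fh1+/+ and 96.9% ± 0.607 in Fh1-/- kidneys at day 5, and 96.7% ± 0.737 in Fh1+/+ kidneys at day 10. In Fh1-/- replicates 1 to 5 at day 10 the share was 20.4%, 96.8%, 23.7%, 95.1% and 96.4%. In replicates 1 and 3, Hbegf held 43.5% and 44.0% and Areg 28.9% and 25.9%. The shares of Tgfa and Btc there were 3.18% and 3.29% in replicate 1 and 3.06% and 2.57% in replicate 3, although their own levels were not raised. The ligands other than Egf summed to 36.2 and 33.5 CPM per kb in replicates 1 and 3 and to 5.70 to 9.20 CPM per kb in the other 18 libraries, so the shift came from both a lower Egf level and higher levels of the other ligands. Since the member list pairs Egf with these ligands, the shares are a description and were not tested.

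**Figure D2:**
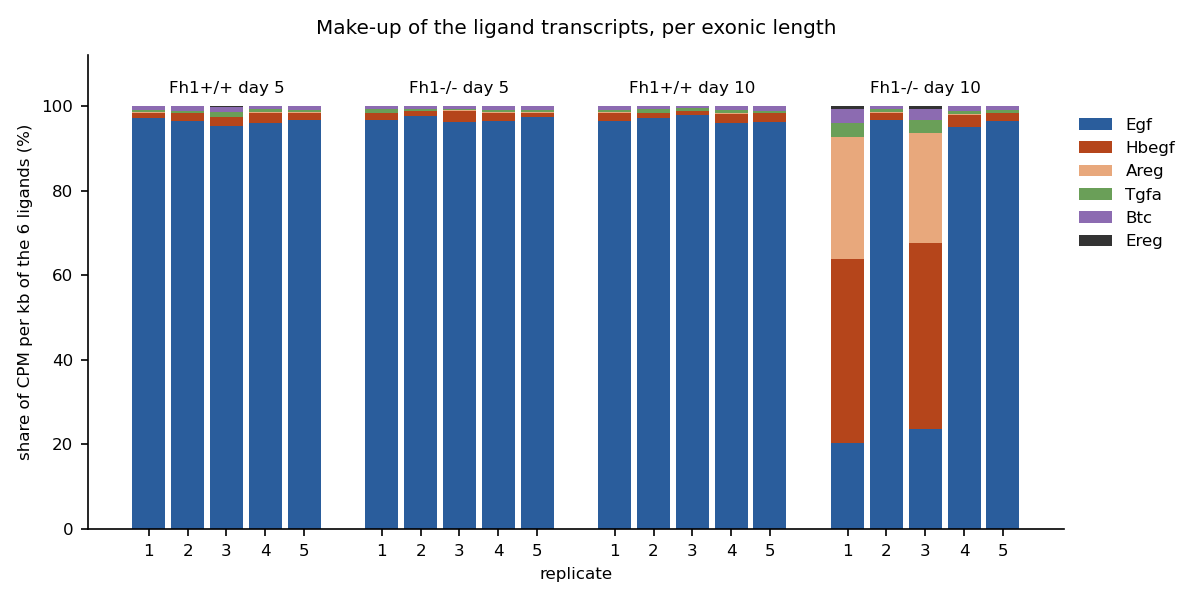
Share of each ligand in the summed CPM per kb of exon of the 6 ligands (percent), 1 stacked bar per library, grouped by genotype and day. Egf fills 95.1% or more of every bar except Fh1-/- day 10 replicates 1 and 3, where it fills 20.4% and 23.7% and Hbegf and Areg take most of the rest.

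The 250 bases before the start of transcription were read from RefSeq (GRCm38.p6) for the 7 of the 10 members matched, and searched on both strands for TGACGTCA, the cAMP response element, and TGANTCA, the AP-1 site of FOS and JUN. The windows shown are those of Areg, which was high in the pair of libraries, of Errfi1, which was higher in all Fh1-/- kidneys at day 10, and of the upstream start of Egf, which was low in the pair. Capitals mark TGACGTCA, which reads the same on both strands. It was found in Areg (chr5:91139349-91139598, plus strand, first base at -61 from the start) and in the second of the Errfi1 starts (chr4:150854820-150855069, plus strand, first base at -51). It was not found in Egf (chr3:129755323-129755572, minus strand), nor in the windows of the second Egf start, the first Errfi1 start, Btc, Tgfa, Egfr or Erbb2, and TGANTCA was found in none of these windows. Over all 32851 windows in the table, 1.55% held TGACGTCA and 6.75% held TGANTCA. A match is a description of these letters and not evidence of binding.
Areg: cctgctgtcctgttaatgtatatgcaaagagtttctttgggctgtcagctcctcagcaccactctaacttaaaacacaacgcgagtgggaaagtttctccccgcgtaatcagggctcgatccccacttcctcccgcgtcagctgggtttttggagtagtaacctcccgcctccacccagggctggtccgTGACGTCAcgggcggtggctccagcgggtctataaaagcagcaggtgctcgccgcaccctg
Errfi1, second start: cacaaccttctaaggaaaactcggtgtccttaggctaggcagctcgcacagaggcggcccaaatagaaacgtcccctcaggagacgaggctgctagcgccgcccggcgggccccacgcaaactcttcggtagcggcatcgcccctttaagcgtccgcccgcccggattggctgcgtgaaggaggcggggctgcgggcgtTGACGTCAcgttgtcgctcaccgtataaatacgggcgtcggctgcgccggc
Egf: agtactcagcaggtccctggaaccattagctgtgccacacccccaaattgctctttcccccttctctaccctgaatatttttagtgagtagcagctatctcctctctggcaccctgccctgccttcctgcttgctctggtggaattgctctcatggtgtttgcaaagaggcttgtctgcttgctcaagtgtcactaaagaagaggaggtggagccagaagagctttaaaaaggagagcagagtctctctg

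Markers of the tubule segments that make Egf were set beside it. Slc12a1, the sodium, potassium and chloride cotransporter of the thick ascending limb, was at 75.5, 988, 68.3, 810 and 1558 CPM in Fh1-/- replicates 1 to 5 at day 10 and at 1129 to 1908 CPM in Fh1+/+ kidneys. Kcnj1, a potassium channel of the same segment, was at 61.7, 328, 62.4, 248 and 349 CPM against 275 to 417 CPM. The pair of libraries lowest in Egf was thus lowest in both. Replicate 4 was also below the controls in both genes, and replicate 2 in Slc12a1. Umod, the uromodulin gene of the thick ascending limb, was not lower in the pair, at 6946, 7769, 6995, 8880 and 15553 CPM against 4769 to 10212 CPM. Of the distal convoluted tubule genes, Slc12a3, the thiazide-sensitive cotransporter, was at 1020, 1346, 1151, 1199 and 1202 CPM against 1038 to 1411 CPM, and Trpm6, a magnesium channel, at 43.1, 46.8, 41.6, 31.8 and 30.4 CPM against 29.9 to 50.2 CPM. Slc12a3 and Trpm6 in replicates 1 and 3 were thus within or close to the range of the controls, and Egf was not.

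Calb1, which encodes a calcium-binding protein of the distal convoluted tubule, was at 288, 590, 255, 338 and 371 CPM in Fh1-/- replicates 1 to 5 at day 10 against 406 to 685 CPM in Fh1+/+ kidneys. Pvalb, the parvalbumin gene, was at 1.84, 30.7, 2.41, 8.97 and 9.34 CPM against 37.6 to 59.6 CPM. It was thus lower in all Fh1-/- libraries, including replicates 2 and 5, in which Egf was within the range of the controls. The log2 fold change of Pvalb was -2.14 (standard error 0.64, adjusted p = 0.0825, edgeR; adjusted p = 0.00771, DESeq2), and -1.52 without replicates 1 and 3 (adjusted p = 0.117, edgeR). Of 17 markers of thick ascending limb and distal convoluted tubule, 15 had a log2 fold change below 0 (median -0.43, against 0 over all genes, and -0.19 without replicates 1 and 3). Of these, 4 were lower at an unadjusted p under 0.05 from edgeR (11.9% of all genes), 1 (Pvalb) was called lower by DESeq2 (2.05% of all genes), and in 1 the genotypes did not overlap with Fh1-/- lower (3.68% of all genes). None of the 17 was at 0 in any library, and their summed level lay between 9222 and 20632 CPM in Fh1-/- and between 9334 and 15727 CPM in Fh1+/+ kidneys at day 10, mostly through Umod. Their part in the level of Egf was not tested.

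**Figure D3:**
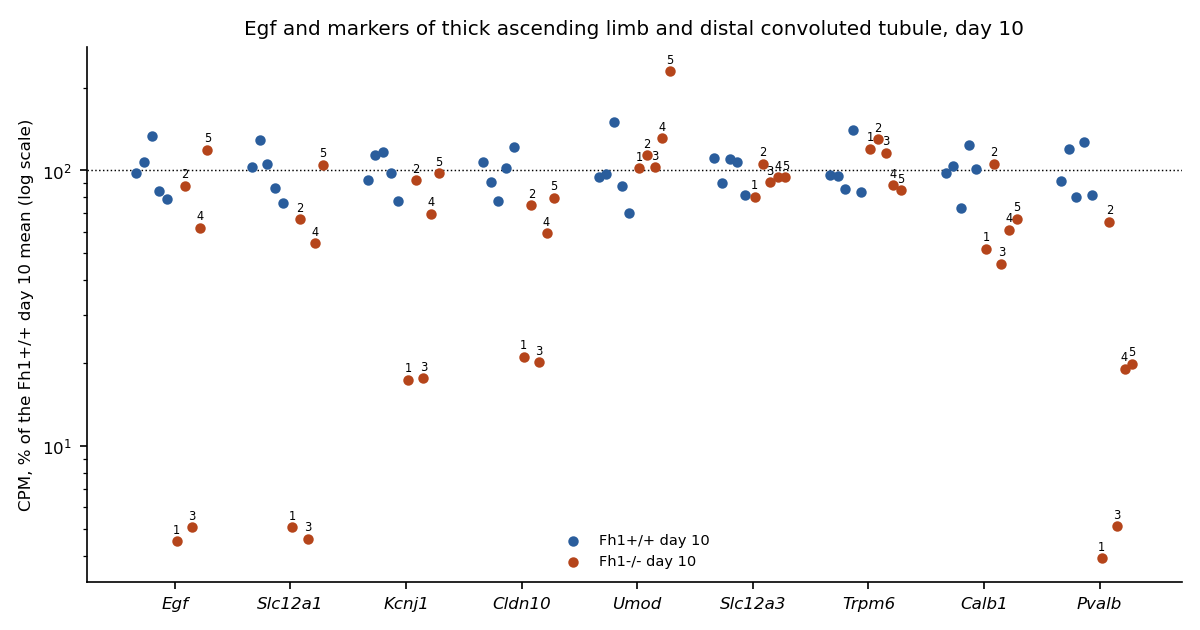
CPM of Egf and 8 markers of thick ascending limb and distal convoluted tubule in each day 10 library, as a percentage of the Fh1+/+ day 10 mean of that gene (log axis, dotted line at 100%). Numbers are Fh1-/- replicates. Replicates 1 and 3 lie at 4.51% and 5.07% for Egf and at 5.09% and 4.61% for Slc12a1, but at 102% and 103% for Umod and at 80.3% and 90.6% for Slc12a3.

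Over the 20 libraries, the 5 genes whose log2 CPM followed Egf most closely, of 13700 genes with a mean of at least 1 CPM, were 6330410L21Rik (Pearson r = 0.992), Kcnj1 (0.989), Slc12a1 (0.981), Scn4b (0.979) and Smim5 (0.977). Spearman's rho for these genes was 0.892, 0.91, 0.78, 0.783 and 0.641. 6330410L21Rik is an antisense gene that overlaps Egf, and if reads were not counted by strand, those of both cannot be told apart. Without the 2 libraries farthest from the median of Egf, which were Fh1-/- day 10 replicates 1 and 3, r was 0.841, 0.890, 0.671, 0.685 and 0.454 in that order. Of the 5, the r of Smim5, a small membrane protein, moved most when the pair was left out, and that of Kcnj1 least. Scn4b encodes a sodium channel subunit. Among members, Hbegf and Areg had r = -0.942 and -0.926 with Egf over 20 libraries, and -0.266 and 0.257 without the pair, so these relations rested on it. The correlations are a description over libraries from 4 groups, with no test.

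Of the receptors, Egfr was higher in every Fh1-/- kidney at day 10 than in any control of that day. On chromosome 11 (16752203 to 16918158, plus strand), Egfr, the receptor that all 6 ligands bind, was at 91.6, 62.0, 79.8, 102 and 58.7 CPM in Fh1-/- replicates 1 to 5 and at 47.2, 44.1, 41.3, 50.5 and 44.8 CPM in Fh1+/+ kidneys. Day 5 levels, which overlapped, were 67.3, 41.9, 50.9, 53.8 and 50.4 CPM in Fh1-/- and 38.8, 43.0, 55.5, 50 and 53.6 CPM in Fh1+/+ kidneys. Unlike for Hbegf and Areg, the highest value was in replicate 4 rather than in the pair that stood apart. Egfr had a day 10 log2 fold change of 0.78 (SE 0.16, unadjusted p = 0.000412, adjusted p = 0.0376, edgeR), past 0.05 but not past the threshold of 0.01. DESeq2 called it (adjusted p = 0.000342). Without replicates 1 and 3 it was 0.71 (standard error 0.17, adjusted p = 0.0984, edgeR). The day 5 value was 0.12 (standard error 0.13, adjusted p = 1, edgeR). An antisense gene, Egfros, overlaps Egfr.

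Erbb2, the partner receptor that binds no ligand of its own (chromosome 11, 98412470 to 98437716, plus strand), lay between 66.5 and 105 CPM in Fh1-/- and between 79.0 and 114 CPM in Fh1+/+ kidneys at day 10. Replicates 1 and 3 had its lowest values, 66.5 and 74.9 CPM, and replicates 2, 4 and 5 were at 100, 105 and 104 CPM. Erbb2 had a log2 fold change of -0.15 in all libraries (standard error 0.16, adjusted p = 0.546, edgeR), and 0.064 without replicates 1 and 3 (standard error 0.12, adjusted p = 0.812, edgeR), so its sign turned with them. Erbb3, which encodes a receptor for neuregulins with little kinase activity (chromosome 10, 128567523 to 128589652, minus strand), was at 42.6, 60.6, 42.1, 104 and 66.9 CPM in Fh1-/- and at 52.6, 40.8, 46.6, 38.1 and 42.4 CPM in Fh1+/+ kidneys at day 10. Here replicates 2, 4 and 5 exceeded all controls and replicates 1 and 3 did not. The log2 fold change of Erbb3 was 0.52 (standard error 0.23, unadjusted p = 0.0507, adjusted p = 0.187, edgeR), 0.82 without replicates 1 and 3 (standard error 0.18, adjusted p = 0.0820, edgeR) and 0.26 without replicate 4. At day 5, the log2 fold changes were 0.04 for Erbb2 and 0.01 for Erbb3 (adjusted p = 1 for each, edgeR).

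Errfi1, the feedback inhibitor that binds the kinase domains of these receptors, had the largest difference in level that was shared by all Fh1-/- kidneys among the members. On chromosome 4 (150853919 to 150868892, plus strand), it was at 1033, 610, 958, 1020 and 717 CPM in Fh1-/- replicates 1 to 5 at day 10 and at 572, 299, 491, 311 and 285 CPM in Fh1+/+ kidneys. The genotypes did not overlap, and the lowest Fh1-/- library, replicate 2, was at 156% of the Fh1+/+ mean. Day 5 levels, which overlapped, were 614, 462, 623, 589 and 377 CPM in Fh1-/- and 467, 379, 308, 390 and 280 CPM in Fh1+/+ kidneys. Errfi1 had a day 10 log2 fold change of 1.14 (SE 0.25, unadjusted p = 0.00076, adjusted p = 0.0415, edgeR), and DESeq2 called it (adjusted p = 0.000291). Without replicates 1 and 3 it was 1.01 (standard error 0.27, adjusted p = 0.112, edgeR). The day 5 value was 0.53 (standard error 0.17, unadjusted p = 0.0088, adjusted p = 0.792, edgeR). 1700045H11Rik, an antisense gene, overlaps Errfi1.

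**Figure D4:**
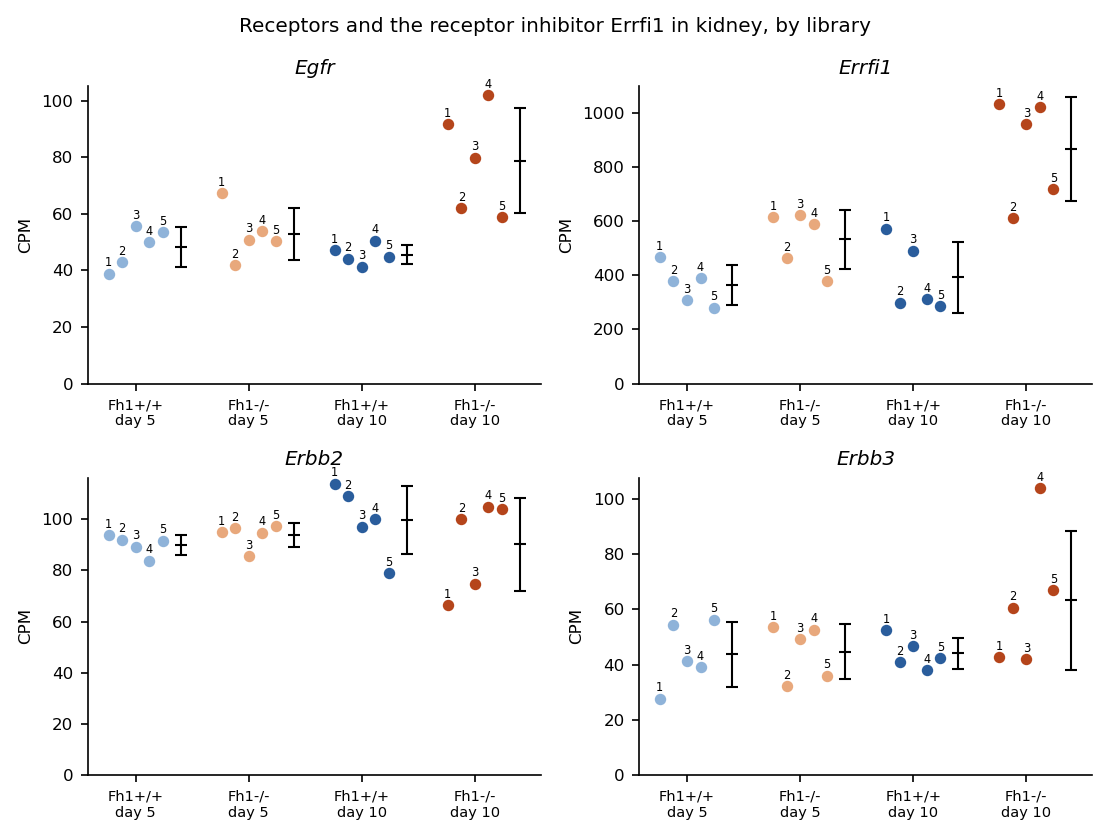
CPM of the receptors Egfr, Erbb2 and Erbb3 and of the inhibitor Errfi1 in each library, by genotype and day, with the replicate number above each point and the mean ± SD (n = 5) beside each group. Fh1-/- day 10 libraries lie above all Fh1+/+ day 10 libraries for Egfr (58.7 to 102 against 41.3 to 50.5 CPM) and Errfi1 (610 to 1033 against 285 to 572 CPM), and overlap them for Erbb2 and Erbb3.

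Of the 10 members, 8 passed the filter on low counts, all but Areg and Ereg. At day 10, 0 of the 8 were called by edgeR (adjusted p under 0.01 and absolute log2 fold change over 0.58), against 0.0557% of 14360 genes. At an adjusted p under 0.05, 2 passed (Egfr and Errfi1), against 2.83% of all genes. DESeq2 called the same 2 genes higher (3.49% of all genes), and 3, with Hbegf, were higher at an unadjusted p under 0.05 from edgeR (15.1% of all genes). Limma-voom called 0. No share of all genes is given for limma-voom, here or in the later comparisons. Its counts of 0 therefore do not show whether the members differ from other genes. In 2 of the 8 the genotypes did not overlap with Fh1-/- higher, against 3.96% of all genes. The median log2 fold change of the 8 was 0.27, and 0 over all genes tested. Without replicates 1 and 3, the median was 0.20, 0 of 8 were called by edgeR (0.0135% of 14775 genes), and 3, then Egfr, Erbb3 and Errfi1, were higher at an unadjusted p under 0.05 (10.8% of all genes).

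At day 5 edgeR called 0 of 8 members (0.0347% of 14404 genes) and DESeq2 and limma-voom called 0 (DESeq2, 0.215% of all genes), with 1, Errfi1, higher at an unadjusted p under 0.05 (2.42% of all genes). In the test of the difference between the days in the genotype effect, edgeR called 0 of 8 (0.0335% of 14934 genes), as did DESeq2 (1.82% of all genes) and limma-voom, and 2, Hbegf and Egfr, were higher at an unadjusted p under 0.05 (11.8% of all genes). That difference was -1.01 on the log2 scale for Egf (standard error 0.83, adjusted p = 0.499, edgeR), 1.51 for Hbegf (standard error 0.58, adjusted p = 0.170, edgeR), 0.65 for Egfr (standard error 0.21, adjusted p = 0.111, edgeR) and 0.60 for Errfi1 (standard error 0.31, adjusted p = 0.281, edgeR). No member was therefore shown to differ between the genotypes more at one day than at the other.

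Between day 5 and day 10 within Fh1-/- kidneys, edgeR called 0 of 8 members (0.576% of 14235 genes) and limma-voom 0, whereas DESeq2 called 1 higher, Errfi1 (5.24% of all genes). Errfi1 was 0.70 higher on the log2 scale at day 10 (standard error 0.20, adjusted p = 0.0465, edgeR; adjusted p = 0.00539, DESeq2) and was the 1 member at an adjusted p under 0.05 from edgeR (11.6% of all genes). Hbegf, Egfr and Errfi1 were the 3 members higher at an unadjusted p under 0.05 (17.9% of all genes). Egfr was 0.57 higher (standard error 0.18, adjusted p = 0.0580, edgeR) and Hbegf 1.60 higher (standard error 0.54, adjusted p = 0.0745, edgeR). In Fh1+/+ kidneys edgeR, DESeq2 and limma-voom called 0 of 8 (0% of 14501 genes with edgeR and 0% with DESeq2), and 0 members had an unadjusted p under 0.05 (3.97% of all genes). The Fh1-/- libraries of both days, and those of Fh1+/+, also enter the genotype comparisons, so these values share samples.

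**Figure D5:**
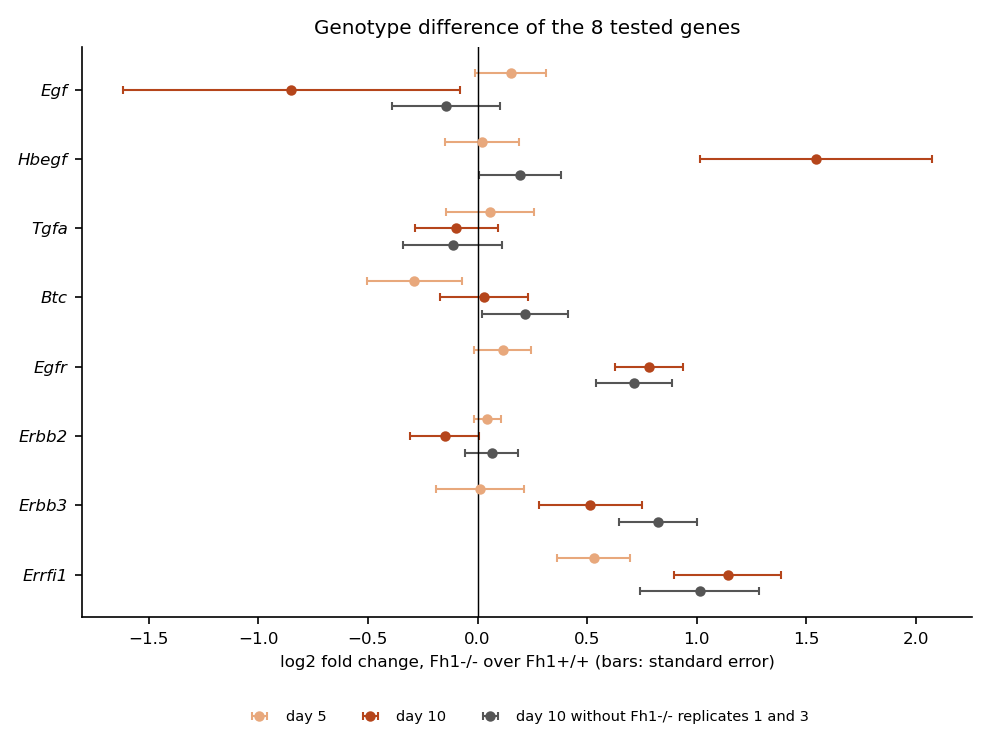
Log2 fold change of Fh1-/- over Fh1+/+ kidneys from edgeR for the 8 members that passed the filter, at day 5, at day 10, and at day 10 without Fh1-/- replicates 1 and 3. Bars are standard errors. Leaving out the pair moves Egf from -0.85 to -0.15 and Hbegf from 1.54 to 0.19, and moves Egfr (0.78 to 0.71) and Errfi1 (1.14 to 1.01) by less than their standard errors.

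Of the other EGF family genes, Nrg1, which encodes neuregulin 1, a ligand of ERBB3 and ERBB4, was at 20, 6.89, 18.6, 14.2 and 8.85 CPM in Fh1-/- replicates 1 to 5 at day 10 and at 3.98, 2.26, 4.25, 4.29 and 4.49 CPM in Fh1+/+ kidneys. All Fh1-/- libraries were above all controls, which held for 1 of the 3 tested genes of this list and for 3.96% of all genes. The log2 fold change of Nrg1 was 1.82 (standard error 0.32, adjusted p = 0.0303, edgeR; adjusted p = 6.55e-06, DESeq2), and 1.39 without replicates 1 and 3 (standard error 0.28, adjusted p = 0.0713, edgeR). The receptor gene Erbb4, at 0.614, 5.21, 0.568, 3.96 and 5.67 CPM in Fh1-/- against 0.561 to 5.19 CPM in Fh1+/+ kidneys, and Nrg4 overlapped between the genotypes. The other 3 genes, Epgn, Nrg2 and Nrg3, were below the filter, and Epgn and Nrg3 had no read in 13 and 19 of the 20 libraries.

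Of 9 genes of ligand shedding, 0 were called by edgeR at day 10, with 4 above (15.1% of all genes) and 1 below (11.9% of all genes) at an unadjusted p under 0.05. With the pair left out there was 1 above (10.8% of all genes) and 1 below. Rhbdf2, a rhomboid-like partner of the sheddase ADAM17, was at 81.3, 13.0, 94.2, 25.0 and 23.6 CPM in Fh1-/- and at 11.6 to 15.5 CPM in Fh1+/+ kidneys, so replicates 1 and 3 were again highest. Its log2 fold change was 1.81 (standard error 0.49, adjusted p = 0.0716, edgeR; adjusted p = 0.00394, DESeq2), and 0.62 without the pair. Its relative Rhbdf1 had 0.94 (adjusted p = 0.112, edgeR) and Adam15 0.33 (adjusted p = 0.156, edgeR), and without the pair these were 0.24 and 0.24. Adam12, a metalloprotease of mesenchymal cells, had -1.98 (adjusted p = 0.0716, edgeR; adjusted p = 0.00848, DESeq2), and -1.61 without the pair. Adam17 itself was at 57.7 to 69.6 CPM in Fh1-/- and 57.6 to 71.9 CPM in Fh1+/+ kidneys. Adam10, another gene of this list, was at 196, 80.6, 164, 89.7 and 85.5 CPM in Fh1-/- replicates 1 to 5 against 74.2 to 98.2 CPM in Fh1+/+ kidneys. Without the pair its log2 fold change was 0.09 (adjusted p = 0.702, edgeR). The 9 genes summed to 714 and 737 CPM in replicates 1 and 3 and to between 421 and 455 CPM in Fh1+/+ kidneys at day 10. Of 23 adaptors and members of the ERK and PI3K cascades, 8 were higher (15.1% of all genes) and none lower (11.9% of all genes) at an unadjusted p under 0.05, with 0 called by edgeR or DESeq2 and a median of 0.13. With the pair left out, 5 were higher (10.8% of all genes), and the median was again 0.13. Among the smallest p-values were those of Pik3r1, a regulatory subunit of PI3K (log2 fold change 0.88, adjusted p = 0.0722, edgeR), and of the adaptors Shc1 (0.57, adjusted p = 0.0945, edgeR) and Gab2 (0.54, adjusted p = 0.0964, edgeR). Without the pair Pik3r1 was at 0.83, Shc1 at 0.24 and Gab2 at 0.26 in log2 fold change.

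Of 19 feedback regulators of the receptors and ERK, 17 had a log2 fold change above 0 at day 10 (median 0.34), 0 were called by edgeR, 3 were called higher by DESeq2 (3.49% of all genes), and an unadjusted p under 0.05 was reached by 8 higher genes (15.1% of all genes) and 1 lower gene (11.9% of all genes). When the pair was left out the median was 0.23, with 6 higher (10.8% of all genes) and 1 lower. Ptpn1, a phosphatase that acts on EGFR, was at 91.5, 86.3, 110, 122 and 105 CPM in Fh1-/- replicates 1 to 5 and at 45.7 to 66.0 CPM in Fh1+/+ kidneys. Lrig1, a membrane protein that restrains ERBB receptors, was at 44.4, 35.0, 42.5, 45.2 and 34.9 CPM against 18.0 to 32.5 CPM. Both were higher in all 5 Fh1-/- kidneys, as Egfr and Errfi1 were. In 5 of the 19 feedback regulators the genotypes did not overlap with Fh1-/- higher, against 3.96% of all genes. The log2 fold changes of Ptpn1 and Lrig1 were 0.85 (adjusted p = 0.0210, edgeR) and 0.69 (adjusted p = 0.0495, edgeR), and 0.89 and 0.64 without replicates 1 and 3. Dusp5, an ERK phosphatase, was at 5.40, 0.952, 5.11, 0.826 and 0.715 CPM against 0.323 to 0.689 CPM (log2 fold change 2.56, adjusted p = 0.0659, edgeR), and Cblb, a ubiquitin ligase, had 0.38 (adjusted p = 0.0907, edgeR). Without the pair Dusp5 was at 0.95 (adjusted p = 0.203, edgeR) and Cblb at 0.35 (adjusted p = 0.203, edgeR).

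Of 16 tested transcripts known to be induced through ERK, 15 had a log2 fold change above 0 at day 10 (median 2.44), 0 were called by edgeR, 8 by DESeq2 as higher (3.49% of all genes), and 11 were higher at an unadjusted p under 0.05 (15.1% of all genes). Fos was at 57.4, 7.61, 56.5, 4.57 and 6.61 CPM in Fh1-/- and at 1.5 to 2.86 CPM in Fh1+/+ kidneys, or 3.71 in log2 fold change (adjusted p = 0.0391, edgeR). Jun was at 375, 48.3, 394, 101 and 87 CPM against 17.2 to 36.3 CPM (2.84, adjusted p = 0.0379, edgeR). Myc was at 80.3, 26.0, 92.1, 18.9 and 17.1 CPM against 4.04 to 9.27 CPM (2.72, adjusted p = 0.0351, edgeR), and Fosb came to 3.34 (adjusted p = 0.0317, edgeR). For these genes, 4 of the 16 tested, the genotypes did not overlap with Fh1-/- higher, against 3.96% of all genes. Replicates 1 and 3 were the highest for Fos, Jun and Myc, as for Hbegf and Areg. Without the pair the log2 fold change was 1.65 for Fos (adjusted p = 0.0410, edgeR), 1.51 for Jun (adjusted p = 0.0573, edgeR), 1.56 for Myc (adjusted p = 0.0410, edgeR) and 3.28 for Fosb (adjusted p = 0.0788, edgeR). The median of the list was then 0.44, with 11 of 16 log2 fold changes above 0, 5 below 0, and 6 higher at an unadjusted p under 0.05 (10.8% of all genes). Ccnd1 went the other way from Fos, Jun and Myc in the pair. It was at 25.3, 232, 30.3, 138 and 137 CPM in Fh1-/- replicates 1 to 5 at day 10 and at 147 to 244 CPM in Fh1+/+ kidneys. The genes of this list also respond to other pathways.

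In the pair of libraries, summed markers of tubular injury lay above the range of the day 10 controls, those of proximal tubule, endothelium, fibroblasts and muscle, and podocytes lay below it, and those of collecting duct and fat cells lay within it. The 14 tubular injury markers summed to 137480 and 130407 CPM in Fh1-/- day 10 replicates 1 and 3, to 3243 CPM or more in all libraries of that group, and to between 1339 and 2618 CPM in Fh1+/+ kidneys, mostly through Spp1 (123162 and 114828 CPM in the pair). Of these markers, 12 of 14 had a log2 fold change above 0 (median 2.14), and 7 of 14 without the pair (median 0.12). Lcn2 was at 8612, 13.6, 9421, 108 and 138 CPM in Fh1-/- replicates 1 to 5, and Cdkn1a at 385, 26.5, 415, 93.4 and 131 CPM against 6.62 to 24.1 CPM. Replicate 2, with the lowest Errfi1 level of its group, also had the lowest Cdkn1a and Lcn2 levels, but not the lowest of every injury marker. Havcr1 was at 13.4 CPM in replicate 2 and at 3.75 CPM in replicate 5. The 12 proximal tubule markers summed to 4835 and 5138 CPM in the pair and to between 15353 and 19822 CPM in Fh1+/+ kidneys, and the 8 endothelial markers to 100 and 107 CPM against 358 to 623 CPM. The 18 leukocyte markers summed to 962 and 1061 CPM against 200 to 302 CPM, of which Cd14, a receptor gene of monocytes, made up 870 and 964 CPM against 8.06 to 13.3 CPM. Without Cd14, a sum computed after its values were seen, the pair was at 92.1 and 96.7 CPM, below the 188 to 292 CPM of the controls. Of the 14 leukocyte markers tested, 11 had a log2 fold change below 0 and 3 above 0 (median -1.10). The pan-leukocyte gene Ptprc was at 1.9 and 1.56 CPM in the pair against 10.5 to 14.7 CPM. Cd68 was higher in the pair, as Cd14 was, at 37.4 and 39.8 CPM against 3.64 to 11.0 CPM. Itgam, at 6.44 and 7.03 CPM, was within the 3.92 to 10.1 CPM of the controls. Cd79a had no read in 3 of the 20 libraries and Cd3e and Cd4 in 1. Summed levels of fibroblast and muscle markers were 121 and 125 CPM in the pair against 317 to 738 CPM, of podocyte markers 167 and 162 against 270.0 to 536 CPM, of collecting duct markers 1154 and 1291 against 1147 to 1593 CPM, and of fat cell markers 58.9 and 56.6 against 54.6 to 219 CPM. Of the collecting duct sums, Aqp2 made up 431 and 526 CPM. Slc4a1 was at 1.66 and 2.56 CPM in the pair against 69.0 to 89.0 CPM in the controls, and Avpr2 at 3.74 and 3.55 against 28.4 to 47.8 CPM. Foxi1 was at 72.7 and 72.1 against 44.3 to 56.1 CPM. Of the 12 collecting duct markers, 6 had a log2 fold change above 0 and 6 below 0 (median 0.03). The part of these cell types in the levels of Egf, Hbegf and Areg was not tested.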

How the data were processed

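Kidney RNA-seq libraries of 4 groups (Fh1-/- and Fh1+/+ at day 5 and day 10, 5 each) were analysed from a table of raw counts for 24421 gene symbols. The authors made the deposited counts from stranded polyadenylated RNA libraries, with adapter removal by Cutadapt, mapping by STAR 2.6.0c to GRCm38 and counting by Rsubread on GENCODE gene models. Whether counting used strand is not stated in those methods. Counts are not normalized and the replicates not pooled.

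Each comparison was fitted across all genes with edgeR 4.0.16 in R 4.3.3 (TMM, filterByExpr, glmQLFit, glmQLFTest, Benjamini-Hochberg adjustment over all genes tested). A gene was called at an adjusted p under 0.01 and an absolute log2 fold change over 0.58. Genotypes were compared within each day on 10 libraries, days within each genotype on 10, and the interaction of genotype and day on 20. Areg and Ereg, below the filter, were compared by two-sided exact permutation tests of mean log2 CPM (prior count 2, scipy 1.17.1). Lengths and positions came from GENCODE, and CPM per kb uses the union of exons. Promoter windows came from RefSeq. Correlations used genes with a mean of at least 1 CPM.

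The members, the gene lists, the rule for naming genes (members, up to 4 genes of each list with the smallest p at day 10, 6 distal markers, and the 5 genes most like Egf) and the tests were chosen with earlier results of these data known. Adam10, Adam17, Aqp2, Avpr2, Ccnd1, Cd68, Foxi1, Havcr1, Itgam and Slc4a1 were named after their values were seen. So were the untested family genes and the markers with no reads. Some genes of these lists are not reported here by name. The fits were tested on simulated data. Alternatives were DESeq2 1.42.0, limma-voom with quality weights (limma 3.58.1), RLE normalization, no filter or 1 CPM in 5 libraries, an adjusted p under 0.05, a replicate block, a covariate for Y-linked reads, 1 fit of all 20 libraries, a prior count of 0.5, raw reads in place of reads per length, and leaving out libraries. Permutation tests and shares without both Fh1-/- day 10 replicates 1 and 3 were added after seeing the data.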

Additional observations from a re-analysis of the deposited data

Results flagged for a closer look

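Of 40 groups of 5 libraries tested for a single value far from the rest (10 members in 4 groups), 2 had one, and chance gives about 1 in 20. Btc was at 4.89 CPM in Fh1+/+ day 5 replicate 4, with the other 4 libraries of that group between 7.73 and 9.30 CPM. Erbb2 was at 85.7 CPM in Fh1-/- day 5 replicate 3, with the other 4 libraries between 94.8 and 97.3 CPM. The pair of low Egf values in Fh1-/- kidneys at day 10 is not found by this rule, which looks for 1 library at a time.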

How the results depend on the processing

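The count of called members was 0 with edgeR in all 5 comparisons. At day 10 it was 2 (Egfr and Errfi1) with DESeq2, at an adjusted p under 0.05 and in 1 fit of all 20 libraries, and for Fh1-/- day 10 against day 5 it was 1 (Errfi1) under each of these 3 settings. It was 0 with limma-voom, RLE normalization, other filters, the Y-linked covariate, and every library left out, alone or as the pair of Fh1-/- day 10 replicates 1 and 3. Apart from the day 10 fit without the pair, no share of all genes is given for these settings. With single libraries left out at day 10, the edgeR log2 fold change of Egfr lay between 0.67 and 0.88 (adjusted p 0.0116 to 0.103) and that of Errfi1 between 1.05 and 1.32 (adjusted p 0.0155 to 0.117). Limma-voom with quality weights gave 0.36 for Hbegf at day 10 (adjusted p = 0.506). As raw reads, the Egf share was 98.4% and 98.6% in Fh1+/+ and Fh1-/- kidneys at day 5 and 98.5% in Fh1+/+ kidneys at day 10. For Fh1-/- kidneys at day 10 it was 77.7%, against 66.4% per length and 96.1% per length without the pair.

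Same-numbered samples showed no consistent shared deviation (correlations from -0.51 to 0.33), and the main fits did not pair them. The study used littermate controls that were induced and killed together with the experimental mice. These correlations cannot show whether the numbers mark such sets. With the replicate block, 0 members were called in all 5 comparisons. The block gave log2 fold changes of -1.69 for Egf and 1.09 for Hbegf at day 10, and turned the sign of Btc at day 10 (-0.0082) and of Hbegf at day 5 (-0.011).

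Signs also turned for small differences that no setting called. Without the pair these were Erbb2 at day 10 (0.064), Erbb2 in the difference between the days (0.016) and Ereg at day 10 (difference in mean log2 CPM -0.24, exact permutation p = 0.393), and with limma-voom Tgfa at day 5 (-0.0043). With single libraries left out, values on both sides of 0 were found for Btc (-0.14 to 0.14) and Tgfa (-0.19 to 0.0009) at day 10 and for Tgfa (-0.049 to 0.18), Hbegf (-0.12 to 0.14) and Erbb3 (-0.11 to 0.12) at day 5. The Ereg difference at day 5 lay between -0.76 and -0.40, and its exact permutation p, between 0.0317 and 0.0794, was above 0.05 without Fh1-/- day 5 replicate 1, 4 or 5 or Fh1+/+ day 5 replicate 1, 2 or 3. The causes of these changes were not tested. Of Areg and Ereg, most libraries had 2 to 13 reads, so counting error limits their levels there.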
